A study of Danio rerio and Oryzias latipes with 22 samples.

Results

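Cardiomyocytes of the zebrafish ventricle in which no transcript of *nppa* was counted made up 763 of the 48409 zebrafish cells that passed the filters on cells. They were chosen on measured counts. Barcodes were kept with at least 200 genes and at most 40% of their unique molecular identifiers (UMIs, 1 per captured mRNA) in mitochondrial genes. A cell was counted as a cardiomyocyte with at least 1 UMI in at least 3 of the 5 genes *ryr2b*, *scn4ba*, *myom1b*, *corin* and *actn2b*, and with fewer than 2 of the 4 genes *acta2*, *hspa12b*, *clcn2a* and *smoc1* detected. That gave 6375 cardiomyocytes, of which the 763 with 0 UMIs of *nppa* are called *nppa*-negative and the other 5612 *nppa*-positive.

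The cells came from ventricles of wild-type Tübingen zebrafish aged 6 to 18 months, dissociated after the atrium and the bulbus arteriosus had been cut away. Ventricles were uninjured (4 samples) or taken 3 days (3 samples) or 14 days (6 samples) post-injury (d.p.i.), and the injury was a cryoinjury, in which the tip of the ventricle is touched with a metal probe cooled in liquid nitrogen. The fish are wild type in every group, and how many fish went into a sample is not given in the sources used here, so that p-values measure only the spread between these samples. The 9 medaka samples of the series were not analysed here. The uninjured samples held 395 of the *nppa*-negative cells, 287 of them in replicate 4, those at 3 d.p.i. held 29 and those at 14 d.p.i. 339.

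The zebrafish ventricle has an outer cortical wall and an inner mesh of muscle ridges, the trabeculae. *nppa* encodes atrial natriuretic peptide, a hormone that lowers blood volume, and in the fish ventricle it is best known from trabecular cardiomyocytes. T-box factors divide the heart muscle between them: *tbx5* promotes the working chamber program, which includes natriuretic peptide and connexin genes, while *tbx2* represses that program, as known from the mouse heart, at the atrioventricular canal between atrium and ventricle.

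*myl7*, the myosin light chain of cardiac muscle, stood at 33282 UMIs per 1000000 UMIs of nuclear genes (CPM) in the summed *nppa*-negative cells, against 974 CPM in cells with none of the 5 marker genes and no *nppa*. The pan-leukocyte gene *ptprc* stood at 1.14 CPM and the endothelial receptor gene *kdrl* at 11.2 CPM in the *nppa*-negative cells. Deep cells weigh most in these sums. The 216 *nppa*-negative cells with exactly 3 of the 5 markers had 17130 CPM of *myl7*, 6.98 of *ptprc* and 91.9 of *kdrl*. The 292 with all 5 had 36241, 0.167 and 1.17 CPM. Cells with none of the markers and no *nppa* had 33.8 CPM of *ptprc* and 184 of *kdrl*. Their median depth was 10091 nuclear UMIs (interquartile range 2186 to 19085), against 12631.5 in *nppa*-positive cells, and 482 of the 763 had at least 5000. A minority, described further on, carried atrial myosin heavy chain. Hardly any cell barcodes recurred between samples: over the 78 pairs of samples at most 0.293% of the smaller one were shared, and none among the *nppa*-negative cells.

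Depth bears on the choice of cells, because a shallow cell can miss *nppa*. The 216 *nppa*-negative cells with exactly 3 of the 5 markers had a median of 1464.5 nuclear UMIs, the 255 with 4 had 8701 and the 292 with all 5 had 19533. Just outside the rule stood 768 cells with 2 markers and no *nppa*, at a median of 1751. On the side of *nppa*, 249 cardiomyocytes had 1 UMI, 134 had 2 and 5229 had 3 or more. Thinning every cell to 1000 UMIs raised the expected share of cardiomyocytes without an *nppa* UMI in every sample. It rose from 4.87% to 26.6% in uninjured replicate 2, and from 9.02% to 12.8% in 14 d.p.i. replicate 3. On the side of the other 4 genes, 644 of the *nppa*-negative cells had none detected and 119 had 1, while 15 more cells were left out with 2 and 3 with 3. Cells with none of the 5 markers, which should lack *nppa*, held an *nppa* UMI in 0.801% to 9.31% per sample at median depths of 626 to 3910 nuclear UMIs, so that some of the cells with 1 UMI can carry background.

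The share of *nppa*-negative cells among cardiomyocytes varied widely between samples. In uninjured replicates 1 and 2, which were counted with an earlier gene list than all other samples, it was 2.60% and 4.87%. In uninjured replicates 3 and 4 it was 13.3% and 31.7%. In the 3 samples at 3 d.p.i. it was 2.11%, 3.72% and 2.53%, and in the 6 at 14 d.p.i. it was 37.8%, 18.7%, 9.02%, 6.17%, 7.11% and 7.69%. All 14 d.p.i. samples lay above all 3 d.p.i. samples, while the uninjured samples spanned nearly the whole range. The mean was 14.4% ± 12.3 at 14 d.p.i. (SD, n = 6) and 2.79% ± 0.83 at 3 d.p.i. (SD, n = 3), a difference of 11.6 percentage points with p = 0.0238 in a two-sided exact permutation test. This is the smallest p the design allows, and it missed the threshold after adjustment over the 3 contrasts (adjusted p = 0.0714). The share at 3 d.p.i. was 10.4 points below the uninjured mean of 13.1% ± 13.2 (SD, n = 4), with exact p = 0.114, and the share at 14 d.p.i. was 1.27 points above it, with exact p = 0.83. These tests held no term for the gene list. Marker genes of the rule were low in uninjured replicate 2. Its *nppa*-positive cells had the lowest values of 10 samples for *corin* (3.11 CPM, median 179), *scn4ba* (216, median 1281) and *actn2b* (431, median 3954). The rule need not choose the same cells there, so that its share may not be like for like. Without uninjured replicates 1 and 2 the difference of 14 d.p.i. from uninjured was -8.13 points. Among cells of at least 5000 nuclear UMIs the 14 d.p.i. share was again above the 3 d.p.i. share, by 10.6 points, without overlap. The groups overlapped after thinning every cell to 1000 UMIs (difference 17.4 points), with 11.7% and 12.8% in replicates 5 and 3 of 14 d.p.i., against 13.1% in replicate 2 of 3 d.p.i. They overlapped as well at a mitochondrial share of at most 15% (difference 20.4 points), with 9.52% and 11.4% in the same replicates of 14 d.p.i., against 13.3%. Thinning to 1000 UMIs moved the difference of 3 d.p.i. from uninjured to -22.4 points (adjusted exact p = 0.107). As a share of all cells that passed the filters, *nppa*-negative cells differed in none of the 3 contrasts (exact p = 0.229, 0.448 and 0.119). A lower count of these cells and a higher count of *nppa* per cell cannot be told apart in this measure.

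**Figure D1:**
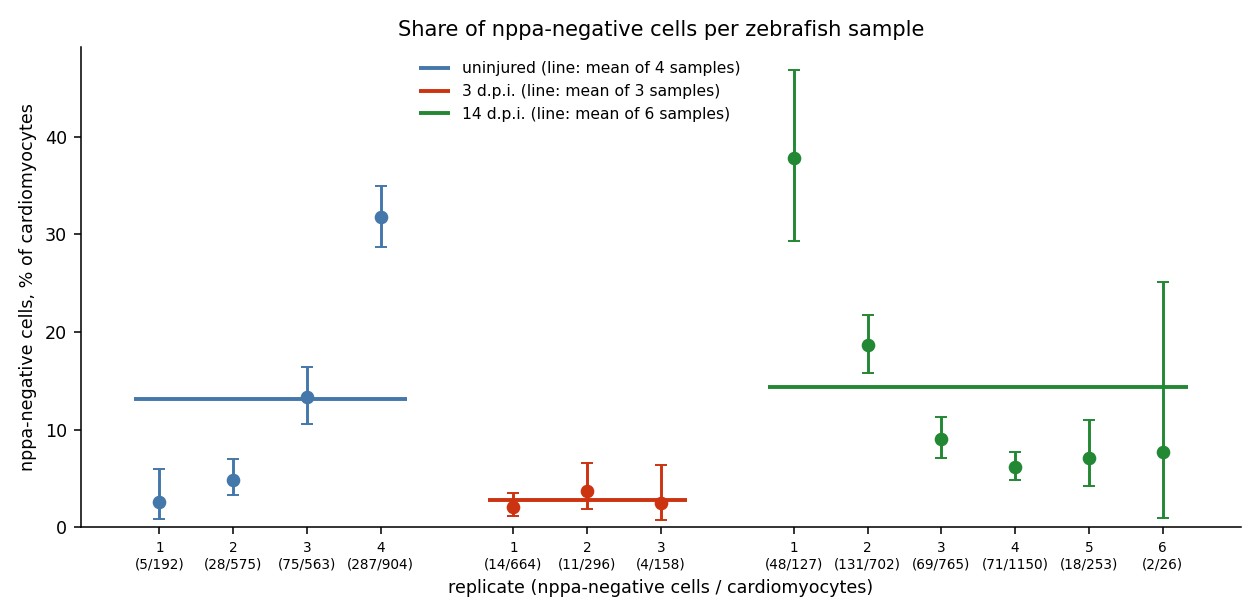
Share of *nppa*-negative cells among cardiomyocytes (%) in each of the 13 zebrafish samples, with exact 95% binomial intervals that cover counting error only, and the mean of each group as a line. The 3 samples at 3 d.p.i. lie between 2.11% and 3.72%, all below the 6 samples at 14 d.p.i., and uninjured replicate 4 stands at 31.7%.

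Against the *nppa*-positive cells of the same sample, *nppa*-negative cells had less *bmp10l*, *nppb*, *sema5a* and *scn5lab*, and more *gas1a*, *plxna4*, *c6* and *dbn1*. Most genes tested for the respiratory chain and for fatty acid oxidation were lower. The 2 classes were compared in the 10 samples with at least 10 cells of each, after the UMIs of each class had been summed, with the sample as a term. Genes of the rule were left out. Of 10617 genes tested, 366 were higher (3.45%) and 625 lower (5.89%) at an adjusted p under 0.05, and the median log2 fold change was -0.04. In cells with at least 5000 nuclear UMIs, 344 were higher and 556 lower, and all 976 of the 991 called genes that were tested there kept their sign, 717 of them past the threshold. That comparison held 7 samples and none of 3 d.p.i., where replicates 1 and 2 had 3 *nppa*-negative cells each of this depth. Cells of this depth supplied most UMIs of the main sums, with 4734483 of 4898559 in *nppa*-negative cells of uninjured replicate 4. The kept signs are thus no independent check.

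*bmp10l* showed the widest gap. It is named for its likeness to *bmp10*, a growth factor gene needed for trabecular growth in the mouse. Its lowest, median and highest values were 0, 0.306 and 9.10 CPM in *nppa*-negative cells, against 22.4, 68.8 and 112 CPM in *nppa*-positive cells. The classes did not overlap, and the *nppa*-negative cells of all 10 samples held 9 of its UMIs in all (log2 fold change -6.00 ± 0.35, SE, adjusted p = 4.0e-14). *nppb*, which encodes a second natriuretic peptide, had 2.83, 22.4 and 240 CPM in *nppa*-negative cells, against 236, 500.3 and 697 CPM in *nppa*-positive cells. It was lower in all 10 samples (log2 fold change -4.06 ± 0.34, adjusted p = 6.5e-07). Only uninjured replicate 2, at 240 CPM, reached the range of the *nppa*-positive cells.

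The cardiac sodium channel gene *scn5lab* had 9.10, 24.7 and 61.5 CPM (lowest, median, highest) in *nppa*-negative cells, against 59.2, 102 and 134 CPM in *nppa*-positive cells, lower in 10 of 10 samples (log2 fold change -1.78 ± 0.21). The connexin gene *gja5b*, which forms electrical junctions, was singled out after its values were seen. It had 0, 26.4 and 62.2 CPM in *nppa*-negative cells, against 1.11, 98.2 and 213 CPM in *nppa*-positive cells (log2 fold change -1.90 ± 0.19), and its lowest values in both classes belong to uninjured replicate 2, which was counted with an earlier gene list. *hrc*, a calcium-binding protein of the sarcoplasmic reticulum, was lower in 9 of 10 samples (-1.44 ± 0.22). Of the 19 genes tested in the list of excitation and calcium handling, 4 were lower (also *fkbp1b* and the calcium pump gene *atp2a2a*), 1, the potassium channel gene *kcnj11*, was higher, and the others were not called (median -0.31), where 5.89% of all genes were lower.

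Other genes with the smallest adjusted p among the lower ones were *sema5a*, a transmembrane semaphorin of axon guidance (-3.89 ± 0.32), *cnih3*, whose product escorts receptors out of the endoplasmic reticulum (-4.14 ± 0.34), *slc25a4*, a mitochondrial ADP/ATP carrier (-3.56 ± 0.31), *nhsl1a* (-2.30 ± 0.20), the palmitoyltransferase gene *zdhhc23a* (-2.25 ± 0.21), *usp54a* (-3.30 ± 0.32) and *ppp1r9bb*, a scaffold of protein phosphatase 1 (-4.17 ± 0.41). Each was lower in 10 of 10 samples. *sema5a* had 0, 1.38 and 13.2 CPM (lowest, median, highest) in *nppa*-negative cells, against 11.8, 24.5 and 34.2 CPM in *nppa*-positive cells. *nhsl1a* had 9.10, 26.8 and 50.6 CPM, against 77.9, 129 and 221 CPM, with no overlap. Of 22 genes tested for growth factor and cytokine signalling 4 were lower, namely *vegfaa*, *vegfab*, *notch2* and *hif1aa*, and none higher, where 5.89% of all genes were lower. The median of the list, -0.04, was that of all genes, so that the list as a whole did not shift.

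Among the higher genes, *gas1a*, a membrane protein that binds hedgehog ligands, had 4.22, 27.6 and 162 CPM (lowest, median, highest) in *nppa*-negative cells, against 0.887, 4.45 and 6.91 CPM in *nppa*-positive cells. It was higher in 10 of 10 samples (log2 fold change 2.53 ± 0.24, adjusted p = 4.2e-09). *plxna4*, a plexin that receives semaphorin signals, had 2.83, 13.6 and 63.7 CPM, against 0, 0.906 and 4.29 CPM, likewise in 10 of 10 samples (3.18 ± 0.31). The complement component gene *c6* had 16.9, 179 and 704 CPM, against 5.10, 43.2 and 87.8 CPM, in 10 of 10 samples (2.15 ± 0.22). The ranges of these 3 genes overlapped between classes, but within each sample the *nppa*-negative cells stood above.

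The rest of the group with the smallest adjusted p among the higher genes held the actin-binding gene *dbn1* (2.76 ± 0.26), the carboxypeptidase gene *cpa5* (3.36 ± 0.33), *obsl1b*, a relative of the sarcomere protein obscurin (2.82 ± 0.28), *pdgfrl* (1.71 ± 0.20) and *sh3gl2a*, an endophilin of endocytosis (2.36 ± 0.28). They were higher in 8 or 9 of 10 samples. The intermediate filament gene *vim* (2.58 ± 0.39) and the actin-associated genes *tagln* (2.32 ± 0.49) and *xirp2a* (1.57 ± 0.43) were higher too. They are 3 of the 17 genes tested in a list of cardiac stress and dedifferentiation, of which 1, *nppb*, was lower. Over all genes 3.45% were higher and 5.89% lower.

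The T-box repressor genes *tbx2a* and *tbx2b*, singled out after their values were seen, were both higher. *tbx2a* had 0, 16.4 and 70.25 CPM (lowest, median, highest) in *nppa*-negative cells, against 0, 2.47 and 4.92 CPM in *nppa*-positive cells, higher in 9 of 10 samples (log2 fold change 2.84 ± 0.34, adjusted p = 3.7e-06). *tbx2b* had 0, 23.6 and 92.7 CPM, against 1.11, 3.50 and 10.9 CPM, higher in 8 of 10 samples (2.67 ± 0.52, adjusted p = 0.0093, but 0.062 in cells of at least 5000 nuclear UMIs). *tbx5a*, the chamber factor, had 0, 39.3 and 119 CPM, against 26.2, 156 and 259 CPM, and was lower in 9 of 10 samples (-2.18 ± 0.59), but its adjusted p of 0.051 missed the threshold (1.7e-06 to 0.29 over the alternatives run). Of the 15 genes tested in the list of cardiac transcription factors 1, *meis2a*, was lower and none higher (median -0.30), where 5.89% of all genes were lower. Thus *tbx20* (-0.43 ± 0.35), *nkx2.5* (-0.18 ± 0.21), *gata4* (-0.37 ± 0.26) and *hand2* (0.03 ± 0.19) were not called.

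**Figure D2:**
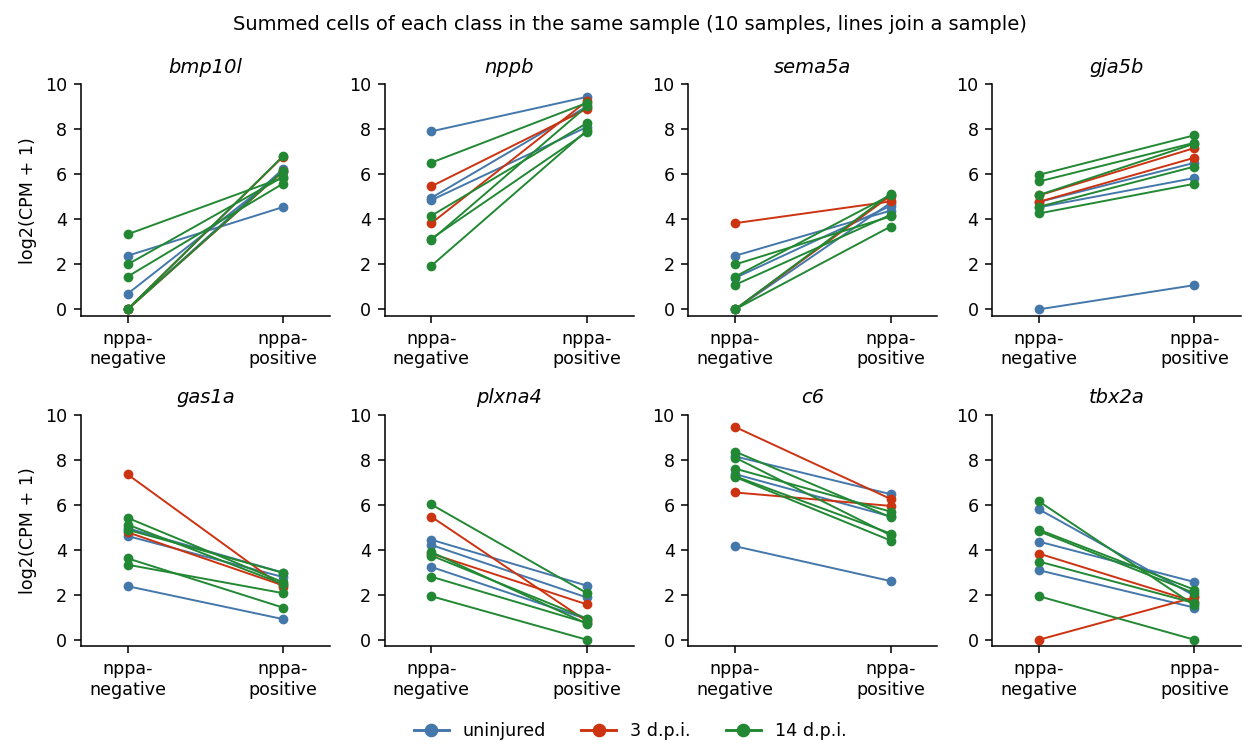
Levels of 8 genes as log2(CPM + 1) in *nppa*-negative and *nppa*-positive cells of the same sample, a line per sample (3 uninjured ones, 2 of day 3 and 5 of day 14). The lines of *bmp10l*, *nppb*, *sema5a* and *gja5b* all climb toward the *nppa*-positive side, those of *gas1a*, *plxna4* and *c6* all descend, and that of *tbx2a* descends in 9 of 10 samples.

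Genes of energy supply were lower in *nppa*-negative cells as a group, where 5.89% of all genes were lower and 3.45% higher. Of 97 nuclear-encoded genes of the respiratory chain tested, 65 were lower and 1 higher, with a median log2 fold change of -0.64 against -0.04 over all genes. The 1 that was higher was *cox4i2*, an alternative subunit of cytochrome oxidase (1.12 ± 0.28). In fatty acid oxidation 15 of 25 were lower and none higher (median -0.77), with *acadvl*, which starts the breakdown of very long chains, at 182, 479 and 1000.1 CPM (lowest, median, highest) in *nppa*-negative cells, against 405, 1169 and 1728 CPM in *nppa*-positive cells. It was lower in 10 of 10 samples (-1.44 ± 0.18), as was the fatty acid carrier gene *fabp3* (-1.15 ± 0.19). In glycolysis 13 of 29 were lower and none higher (median -0.57), among them *pdk2b*, a kinase that restrains pyruvate dehydrogenase (-1.69 ± 0.21), the glucose transporter gene *slc2a1a* (-1.52 ± 0.24) and *aldoaa* (-1.14 ± 0.19).

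Transcripts of the mitochondrial genome are given as a description, since a limit of 40% on them was part of the choice of cells in both classes. In the 7 samples with at least 10 cells of each class above 5000 nuclear UMIs, the median mitochondrial share of a cell was 0.843% to 16.1% in *nppa*-negative cells, against 1.95% to 23.7% in *nppa*-positive cells. It was lower in *nppa*-negative cells in 7 of 7 samples, none of which is of 3 d.p.i. In replicate 2 of that time the share was higher, at 33.9% in the 3 *nppa*-negative cells of that depth, against 21.6% in *nppa*-positive cells, and over cells of any depth it was higher in replicates 2 and 3 of 3 d.p.i. (30.2% and 18.7%, against 21.8% and 14.0%). Of the respiratory chain list, 37 of 97 genes were lower in cells of at least 5000 nuclear UMIs (median -0.41) and 22 of 94 in cells with a mitochondrial share of at most 15% (median -0.25). In the latter fit 268 of all 7519 genes tested were lower.

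Not every abundant group held called genes. None of the 79 genes tested for cytosolic ribosomal proteins was called in either direction (median 0.04). None of 21 endoplasmic reticulum chaperones was called either, but their median of 0.23 lay above that of all genes (-0.04). The 6 named further on were picked for higher levels at 3 d.p.i. in these same cells, so that their counts do not speak for the list. Of them, *calr3a* was higher in 10 of 10 samples, *hspa5*, *pdia6* and *manf* in 9, *calr3b* in 8 and *hsp90b1* in 7. In the contractile apparatus 6 of 23 genes were lower (median -0.53), namely *lmod2a*, *synpo2lb*, *flnca*, *myom2a*, *actc1a* and *smyd1b*, whereas *myl7* (-0.59 ± 0.36) and *tnnt2a* (-0.34 ± 0.16) were not called. In the junction list 4 of 16 genes were lower, *ctnna1*, *cdh2*, *cdh13* and *jupa*. Over all genes 5.89% were lower. A list of 9 cardioprotective genes, which the study had chosen on these samples and which is no independent evidence of direction, held 3 lower genes, *slmapa*, *cdh13* and *sdha*.

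Immediate-early genes were higher in 4 of 20 tests, *fosab*, *jun*, *junba* and *junbb* (0.61 to 0.94 on the log2 scale), and none was lower, where 3.45% of all genes were higher. *junba* was higher in 10 of 10 samples. Of 21 genes that mark matrix and wound cells 5 were higher, *anxa2a*, *s100a10b*, *tmsb4x*, *postna* and *cd63*. Of these, *cd63* turned to -0.22 (adjusted p = 0.745) without cells with 2 markers of another cell type. *postna* was higher in 5 of 10 samples and lower in 2, with 45 UMIs in *nppa*-negative cells. Its median was 0.612 CPM there, against 1.18 CPM in *nppa*-positive cells. Among the 5 genes, *anxa2a*, a membrane-binding annexin, had 23.9, 235 and 9834 CPM (lowest, median, highest) in *nppa*-negative cells, against 4.92, 76.7 and 270 CPM in *nppa*-positive cells. It was higher in 10 of 10 samples (1.99 ± 0.38). The ranges of markers of other cell types overlapped between the classes. The 6 leukocyte markers summed to a median of 60.9 CPM (9.10 to 887) in *nppa*-negative cells, against 40.2 (0.444 to 153) in *nppa*-positive cells, and the 6 endothelial markers to 83.0 (0 to 877), against 75.9 (52.0 to 176). Within samples, the leukocyte sum was higher in *nppa*-negative cells except in replicates 1, 3 and 5 of 14 d.p.i. The endothelial sum was higher in *nppa*-negative cells of uninjured replicates 2 to 4 and of replicate 2 at 3 and at 14 d.p.i. It was lower in replicate 1 of 3 d.p.i. and in replicates 1, 3, 4 and 5 of 14 d.p.i. The part of these markers in the result was not tested. Haemoglobin and other red cell genes were present in both classes. With cells pooled over samples, at least 2 of 5 erythroid markers were found in 69.0% of *nppa*-negative and 71.5% of *nppa*-positive cells at 14 d.p.i. In uninjured samples these pooled shares were 8.86% and 39.0%, but they mix samples of unlike erythroid content. In uninjured replicate 2 the 5 markers summed to 11505 CPM in *nppa*-negative cells, against 3505 CPM in *nppa*-positive cells. The sums were 2.51 against 2.82 CPM in replicate 3 and 6.94 against 10.1 CPM in replicate 4.

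**Figure D3:**
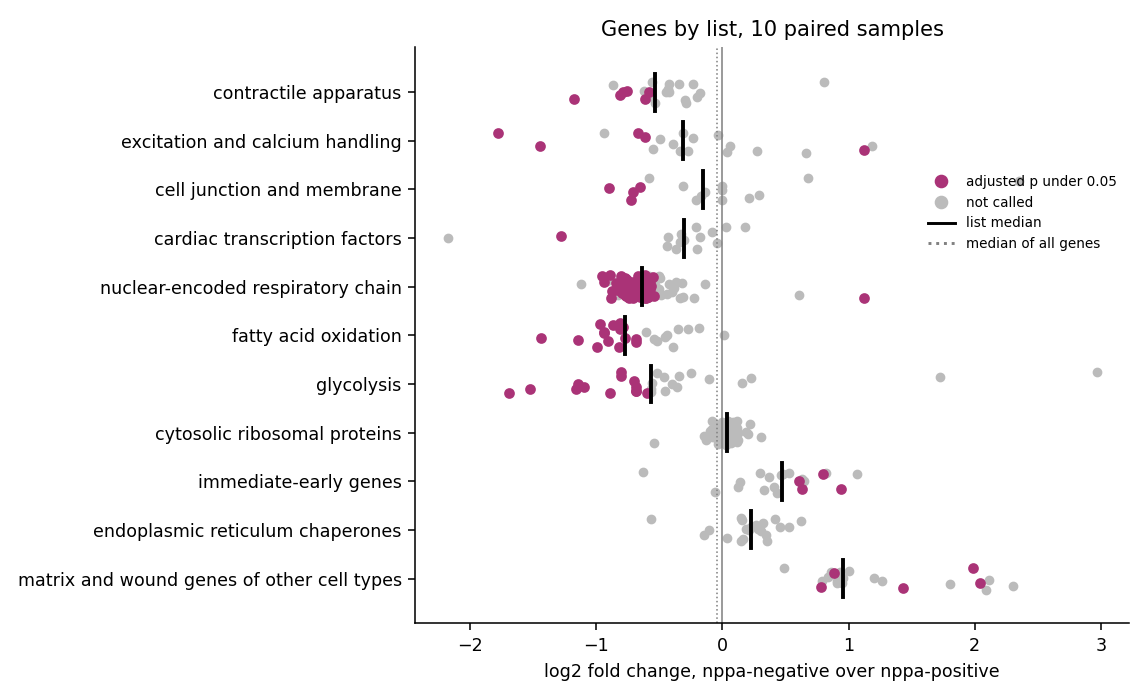
Log2 fold change of *nppa*-negative over *nppa*-positive cells for each gene tested in 11 lists, coloured where the adjusted p was under 0.05, with a bar at the list median and a dotted line at the median of all genes (-0.04). The respiratory chain (65 of 97 lower), fatty acid oxidation (15 of 25) and glycolysis (13 of 29) lie left of 0, and the 79 ribosomal protein genes stand around it. Of all genes 5.89% were lower.

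A minority of the *nppa*-negative cells carried *myh6*, the myosin heavy chain of atrial muscle. Of the 482 cells with at least 5000 nuclear UMIs, 30 from 6 samples had 3 or more *myh6* UMIs, 10 had 1 or 2 and 442 had none. The 30 cells were chosen for *myh6*, and their other genes are given as a description, with no test. Summed, they had 460 CPM of *tbx5a*, against 11.2 CPM in the other 452 *nppa*-negative cells, and *tbx5a* was detected in 83.3% of them, against 11.7%. They had 253 CPM of *tbx2b*, against 12.5 CPM, and 683 CPM of *tbx20*, against 121 CPM. The ventricular myosin gene *myh7l* was at 8544 CPM, against 27250 CPM, *c6* at 33.0, against 202, and *gja5b* at 2.20, against 26.7. A close copy, *myh7*, lies beside *myh7l* in the annotation, so that the split of reads between these is uncertain.

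The differences of *tbx5a* and *tbx2b* held within samples. That of *gja5b* could not be seen in uninjured replicate 2, where *nppa*-negative cells had 0 CPM of it. The 4 samples with at least 4 *myh6* cells of this depth were uninjured replicates 2, 3 and 4, with 6, 4 and 10, and 14 d.p.i. replicate 3, with 8. There *tbx5a* had 115, 535, 489.7 and 688 CPM in the *myh6* cells, against 12.2, 24.2, 4.94 and 1.82 CPM in the rest. *tbx2b* had 197, 316, 199 and 387 CPM in the *myh6* cells, against 0, 7.12, 9.45 and 20.0 CPM in the rest. *myh7l* divided the samples, with 48.7 and 96.9 CPM in the *myh6* cells of uninjured replicate 3 and 14 d.p.i. replicate 3, but 8614 and 16212 CPM in those of uninjured replicates 2 and 4. *myh6* UMIs are not particular to the class: 99 of the 4730 *nppa*-positive cells of that depth had 3 or more. Atrial tissue had been cut away before dissociation, and whether the cells come from a remnant of it was not tested.

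**Figure D4:**
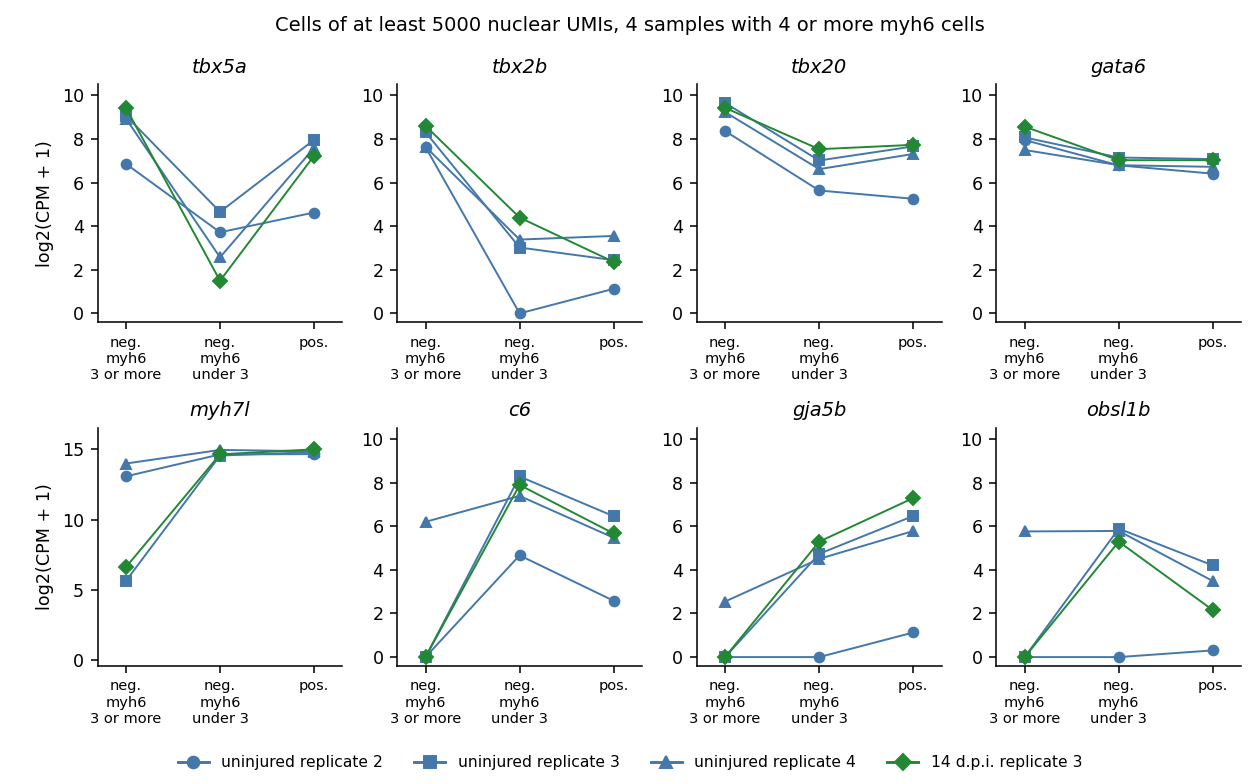
Levels as log2(CPM + 1) of 8 genes in 3 sets of cells with at least 5000 nuclear UMIs: *nppa*-negative cells with 3 or more *myh6* UMIs, the other *nppa*-negative cells, and *nppa*-positive cells, in the 4 samples with at least 4 cells of the first set. *tbx5a* and *tbx2b* stand highest in the *myh6* cells of all 4 samples, *tbx5a* being lowest in the other *nppa*-negative cells, and *c6* and *gja5b* are at 0 in the *myh6* cells of 3 of the 4 samples.

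The *myh6* cells bear on 3 of the values above. Without cells that have 3 or more *myh6* UMIs, *tbx5a* was lower in *nppa*-negative cells with a log2 fold change of -3.59 (adjusted p = 0.0016), and the higher level of *tbx2b* shrank to 1.81 (adjusted p = 1.1e-04). *myh6* itself, which stood at 0, 438 and 4456 CPM (lowest, median, highest) in *nppa*-negative cells, against 0, 6.43 and 938 CPM in *nppa*-positive cells (log2 fold change 3.86 ± 1.29, adjusted p = 0.11), turned to -0.53. *tbx2a* (2.61), *gas1a* (2.42), *bmp10l* (-5.93) and *gja5b* (-1.81) stayed past the threshold there.

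After injury, *nppa*-negative cells were compared between times in the samples with at least 10 of them, 3 uninjured (390 cells), 2 of 3 d.p.i. (25 cells) and 5 of 14 d.p.i. (337 cells). A term for the gene list set uninjured replicate 2 apart, so that the fold changes against uninjured rest on uninjured replicates 3 and 4, while replicate 2 still entered the filter on low counts (6360 genes were tested without it). Of 7904 genes tested, 100 were higher (1.27%) and 210 lower (2.66%) at 3 d.p.i. than in uninjured samples, and 1534 had an unadjusted p under 0.05. The excess of lower genes rested on replicate 2 of 3 d.p.i., without which 61 were higher and 14 lower. Only 14 and 11 cells stood behind the samples at 3 d.p.i., 11 of the 29 cells at that time had under 1000 nuclear UMIs, and 16 of the 29 had no more than 3 of the 5 markers. The sums rested on fewer cells still. In replicate 1, 3 cells of at least 5000 nuclear UMIs held 63545 of the 75523 UMIs summed for the fits. In replicate 2, 3 such cells held 81527 of 92334 UMIs. Of the 14 cells of replicate 1, the 13 with under 3 *myh6* UMIs held 40883 of the 75523 UMIs. The remaining cell, with atrial myosin, held all the others. Without cells with 3 or more *myh6* UMIs, 309 of the 310 called genes could be tested. All of them kept their sign and 291 were still called.

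Muscle genes were low at 3 d.p.i. The atrial and ventricular light chain gene *cmlc1* had 5879 and 5545 CPM at 3 d.p.i., against 32263, 22032 and 22003 CPM in uninjured samples. All samples at 14 d.p.i., at 15871 to 24039 CPM, lay above those of day 3 too, and the log2 fold change against uninjured was -2.95 ± 0.28 (adjusted p = 6.4e-05). *myh7l* had 5932 and 3704 CPM at 3 d.p.i., against 20674, 23037 and 32082 CPM in uninjured samples, also without overlap (-3.50 ± 0.37). The oxygen carrier gene *mb* had 9361 and 12097 CPM at 3 d.p.i., against 17082 to 25716 CPM in uninjured samples (-2.01 ± 0.28). *tnni4a*, *tnnt2a*, *tpm4a*, *ak1* and *aldoaa* completed the group with the smallest adjusted p, at -1.63 to -2.60. In the lists, 7 of 22 contractile genes were lower (median -1.61), 19 of 94 of the respiratory chain (-1.26) and 42 of 78 ribosomal protein genes (-1.23), and none of these was higher. Of all genes 2.66% were lower, with a median of -0.13. Without replicate 2 of 3 d.p.i. 3 contractile genes, 0 of the respiratory chain and 0 ribosomal protein genes were lower, whereas *cmlc1*, *myh7l*, *mb*, *tnni4a*, *tnnt2a* and *ak1* stayed past the threshold and *tpm4a* and *aldoaa* did not.

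Among the genes that were higher at 3 d.p.i., the lysosomal membrane gene *cd63* had 1205 and 1321 CPM at 3 d.p.i., against 202, 79.1 and 48.8 CPM in uninjured samples (3.31 ± 0.54, adjusted p = 0.0059), while the samples of day 14 had 62.2 to 149 CPM. *grna*, a granulin precursor, had 212 and 75.8 CPM at 3 d.p.i., against 0, 1.26 and 0.817 CPM in uninjured samples (6.10 ± 0.94). *anxa5b*, an annexin (5.76 ± 0.90), *vmp1*, which acts in autophagy (4.66 ± 0.75), and *hspa5* (3.43 ± 0.63) were also among the genes with the smallest adjusted p, though *anxa5b* and *vmp1* were not called without replicate 2 of 3 d.p.i. So were the Wnt inhibitor gene *dkk1b*, at 185 and 21.7 CPM, against 25.3, 0 and 0 CPM, and the tubulin gene *tubb5*, whose 33 UMIs at 3 d.p.i. all came from replicate 2, against 1 UMI in uninjured samples. The ratio of the summed levels of *tubb5* was 1166 (exact 95% counting interval 195 to 47444). *abracl* had no UMI in the uninjured samples and was at least 239-fold higher at 3 d.p.i., taking 3 UMIs over the group as the floor. The endoplasmic reticulum chaperones held 6 of 20 higher genes (*hspa5*, *calr3b*, *pdia6*, *hsp90b1*, *manf* and *calr3a*) and none lower (median 2.26), but 1 higher without replicate 2 of 3 d.p.i., and *hsp90b1* turned to -6.52 (adjusted p = 0.49) without the 6% of cells with the highest Scrublet doublet score. Of 21 matrix and wound genes 2 were higher (*cd63* and *tmsb4x*), and of 19 immediate-early genes 1 was (*klf6a*). Over all genes 1.27% were higher and 2.66% lower. None was higher among 16 genes of cardiac stress and dedifferentiation, where *fhl1a* and *tpm4a* were lower (median -1.06), or among 24 heat shock genes, where *bag3* was lower (median -0.56).

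Markers of other cells were uneven between replicates 1 and 2 of 3 d.p.i., and most of their sums overlapped with those of uninjured samples. In replicates 1 and 2 of 3 d.p.i. the 6 leukocyte markers summed to 887 and 65.0 CPM, against 228, 20.1 and 12.0 CPM in uninjured replicates 2 to 4, and *lcp1* was at 0 in both. The 6 endothelial markers summed to 13.2 and 877 CPM, against 76.3 to 199.6 CPM, and the 5 epicardial ones to 26.5 and 206 CPM, against 0 to 10.0 CPM, with *tcf21*, *wt1a* and *wt1b* at 0 at 3 d.p.i. The 5 erythroid markers summed to 4343 and 1635 CPM, against 2.51 and 6.94 CPM in uninjured replicates 3 and 4 and 11505 CPM in replicate 2. Granulocyte and lymphocyte markers were at 0 in all 5 samples. Both samples at 3 d.p.i. were above all 3 uninjured samples in the sum of the epicardial markers. That sum was *aldh1a2* alone in replicate 1, and *aldh1a2* and *tbx18* in replicate 2. The study saw *aldh1a2* in endothelial cells as well. Both samples were above uninjured replicates 3 and 4 in erythroid markers. Replicate 1 stood out in leukocyte and replicate 2 in endothelial markers, and *myl7* was at 26005 CPM in replicate 1 and 5285 CPM in replicate 2. The part of other cells in the result was not tested. The 310 calls rested on single samples: there were 189, 4 and 2 without uninjured replicate 2, 3 and 4, 75 without replicate 2 of 3 d.p.i., and 84, 120 and 199 without replicates 2, 3 and 5 of 14 d.p.i. Without the gene list term there were 78.

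At 14 d.p.i. few genes differed from uninjured samples, 5 higher (0.0633%) and 17 lower (0.215%) of 7904, with 785 at an unadjusted p under 0.05. *fundc2*, a relative of a mitophagy receptor, had 291, 380.1, 383, 188 and 273 CPM at 14 d.p.i., against 71.7, 41.4 and 43.5 CPM in uninjured samples. The groups did not overlap (2.60 ± 0.46, adjusted p = 0.018). *hspa5*, the main chaperone of the endoplasmic reticulum, had 32.2 to 81.9 CPM at 14 d.p.i., against 7.53 and 5.31 CPM in uninjured replicates 3 and 4 (2.92 ± 0.54), while uninjured replicate 2, at 143.3 CPM, stood above them all. *dhrs13l1* was higher too (4.21 ± 0.71), as was the haemoglobin gene *hbba2*, at 2.83 to 24.8 CPM, against 0 and 0.408 CPM in uninjured replicates 3 and 4, but uninjured replicate 2 had 624 CPM of it.

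The lower genes at 14 d.p.i. were led by *her4.1*, a target of Notch signalling, at 0 to 1.74 CPM at 14 d.p.i., against 0, 32.6 and 91.9 CPM in uninjured samples. It had 3 UMIs at 14 d.p.i. and 476 in uninjured samples (adjusted p = 8.3e-04), a ratio of the summed levels of 0.0118 with an exact 95% counting interval of 0.00242 to 0.0347. *klf9*, which glucocorticoids induce, had 0 to 12.0 CPM at 14 d.p.i., against 12.6, 65.3 and 56.1 CPM in uninjured samples (-4.13 ± 0.65). *rbms3*, *sptbn1*, *dapk2a*, *slco3a1*, *hsph1* and *ier2a* were the others named by the rule, at -2.22 to -3.43. Of these, *her4.1*, *rbms3*, *sptbn1*, *dapk2a* and *slco3a1* were as low in uninjured replicate 2 as in the injured samples, at 0 to 8.43 CPM, so that the calls rest on uninjured replicates 3 and 4. Of the 22 calls, 1 was left without uninjured replicate 3 and 0 without replicate 4, whereas 51 and 50 were made without replicates 1 and 2 of 3 d.p.i., and 3 and 2 without replicates 2 and 3 of 14 d.p.i.

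Between the injured times, which share the gene list, 112 genes were higher (1.42%) and 51 lower (0.645%) at 14 d.p.i. than at 3 d.p.i., and 1446 had an unadjusted p under 0.05. Without replicate 2 of 3 d.p.i. 6 were higher and 53 lower, and with DESeq2 375 were higher and 55 lower. Muscle genes were higher at 14 d.p.i., with *cmlc1* at 2.53 ± 0.26 (adjusted p = 1.4e-04), *tnni4a* at 2.57 ± 0.32, *myh7l* at 2.99 ± 0.34 and *mb* at 1.84 ± 0.25. Of 94 respiratory chain genes 37 were higher and none lower (median 1.56 against 0.10 for all genes), but 0 were higher without replicate 2 of 3 d.p.i. (median 1.41). *atp5mc3b*, a subunit of the ATP synthase, had 5580, 4868, 4520, 6683 and 5380 CPM at 14 d.p.i., against 2661 and 2112 CPM at 3 d.p.i. (1.96 ± 0.30), and *cox4i1l* (2.76 ± 0.46), *cox8b* (1.92 ± 0.32) and the adenylate kinase gene *ak1* (2.02 ± 0.33) were also named, none of the 4 being called without replicate 2 of 3 d.p.i. *cd63* (-2.86 ± 0.39), the actin gene *actb1* (-2.54 ± 0.45), *lygl1* (-3.06 ± 0.57), *dkk1b* and *grna* were lower, of which *actb1* was not called without replicate 2 of 3 d.p.i. *grna* had 3 UMIs at 14 d.p.i., against 23 in the samples of day 3, a ratio of the summed levels of 0.00691 with an exact 95% counting interval of 0.00133 to 0.0229. *tubb5*, *tnc* and *col11a1a* were lower as well, but their UMIs at 3 d.p.i. came from replicate 2 alone. Summed markers of other cell types overlapped between the 2 times. Leukocyte markers were at 9.10 to 233 CPM at 14 d.p.i., against 65.0 and 887 CPM at 3 d.p.i. Endothelial markers were at 0 to 160 CPM, against 13.2 and 877 CPM. Their part in this contrast was not tested. There were 95, 30 and 28 calls without uninjured replicate 2, 3 and 4, 309 and 59 without replicates 1 and 2 of 3 d.p.i., and 101, 21, 26 and 72 without replicates 1, 2, 3 and 5 of 14 d.p.i. The 3 contrasts between times share samples.

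**Figure D5:**
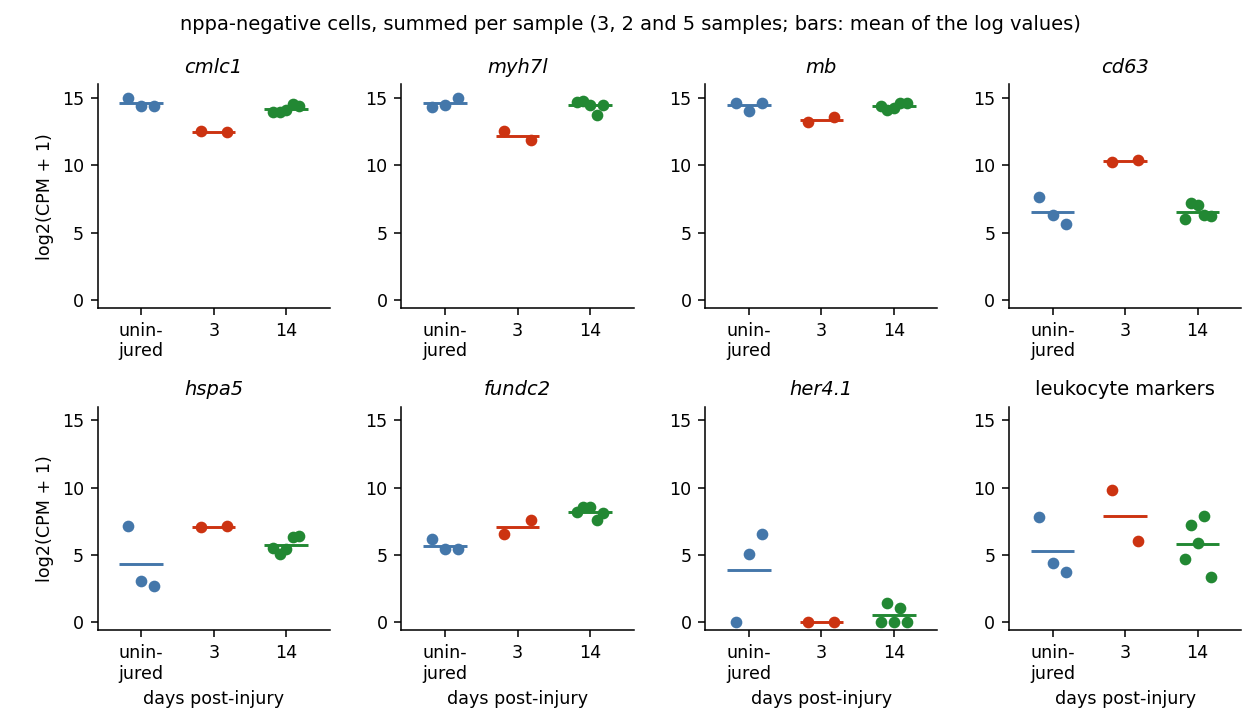
Levels as log2(CPM + 1) in *nppa*-negative cells of 3 uninjured samples, 2 of 3 d.p.i. and 5 of 14 d.p.i. for 7 genes and for the sum of 6 leukocyte markers, with a bar at the mean of the log values. *cmlc1*, *myh7l* and *mb* are lowest in both samples at 3 d.p.i., *cd63* is highest there, and *her4.1* is at 0 in uninjured replicate 2 as at 3 d.p.i.

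The change at 3 d.p.i. was not the same in both classes. The interaction term found 20 genes with a higher (0.188%) and 109 with a lower (1.03%) log2 fold change in *nppa*-negative than in *nppa*-positive cells, of 10617 tested. The excess of lower ones was not seen without replicate 2 of 3 d.p.i. (78 higher, 63 lower) and was smaller without the 6% of cells with the highest Scrublet score (111 higher, 136 lower). *mb* had the smallest adjusted p (difference -1.88 ± 0.24, adjusted p = 9.8e-06): *nppa*-positive cells had 22243 and 27166 CPM of it at 3 d.p.i., against 16267 to 24609 CPM in uninjured samples. *cmlc1* (-1.81 ± 0.24), *tnni4a* (-2.17 ± 0.31), the glycogen phosphorylase gene *pygmb* (-3.45 ± 0.57) and the chaperone gene *hsp90aa1.1* (-3.17 ± 0.54) followed. *pygmb* and *hsp90aa1.1* were not called without replicate 2 of 3 d.p.i. *pygmb* had 66.2 and 10.8 CPM in *nppa*-negative cells at 3 d.p.i., against 131 to 249 CPM in uninjured samples, and 329 and 454 CPM in *nppa*-positive cells, against 164 to 304 CPM. Of the respiratory chain list 42 of 97 genes had a lower difference and none a higher (median -1.39 against -0.34 for all genes), and 9 had a lower one without replicate 2 of 3 d.p.i. The depth of the classes at 3 d.p.i. was unlike, with a median of 1657 nuclear UMIs in *nppa*-negative cells, against 12489 in *nppa*-positive cells, and 55.2% of the *nppa*-negative cells had only 3 of the 5 markers, against 3.58%. The summed values, however, came mostly from 3 *nppa*-negative cells of at least 5000 nuclear UMIs in each sample of 3 d.p.i. These held 63545 of 75523 UMIs in replicate 1 and 81527 of 92334 in replicate 2. There were 284, 42 and 6 calls without uninjured replicate 2, 3 and 4, and 52 without replicate 5 of 14 d.p.i. The part of depth in the difference was not tested.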

How the data were processed

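Single cells of dissociated zebrafish ventricles were captured with the 10x Genomics droplet system. The authors made the deposited counts, raw UMI counts per gene and cell barcode, with Cell Ranger 3.1.0 (uninjured replicates 1 and 2) or 5.0.0 (all other samples) against the GRCz11 genome, and the 2 versions came with different gene lists. Between 11107238 and 75811359 UMIs were deposited per sample, in 85801 barcodes. No depth or normalization had been applied to them.

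Cells were chosen by the rule given above, and genes were matched by symbol. The UMIs of each class were summed per sample, over genes of both lists, and samples with at least 10 *nppa*-negative cells entered the fits. Genes were tested with the quasi-likelihood test of edgeR 4.0.16 (limma 3.58.1, R 4.3.3) on the summed counts, with filterByExpr, TMM scaling and p-values adjusted after Benjamini and Hochberg across every tested gene, and called at an adjusted p under 0.05. Standard errors (SE) were derived from the fold change and the F statistic. The time fits held a term for the gene list, the class fit a term for each sample, and the interaction both classes. Shares were compared with two-sided exact permutation tests over samples, adjusted over 3 contrasts. CPM are UMIs per 1000000 UMIs of nuclear genes, which hold no correction for gene length, so that levels are not compared between genes.

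Named genes were the 8 with the smallest adjusted p in each direction among called genes with an absolute log2 fold change of at least 1 (5 for the interaction), leaving out rule genes, mitochondrial genes and clone names, and the called members of the gene lists. *tbx5a*, *tbx2a*, *tbx2b*, *gja5b* and *myh6*, and the other genes given for the *myh6* cells, were chosen after their values were seen. The members and the lists were chosen with earlier results of these data known.

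Scrublet (scanpy 1.11.5) marked 204 of the 48409 cells (0.421%), which is too few for it to have worked, so that no doublets were removed and leaving out the 6% of cells with the highest score was run as an alternative. Other alternatives were DESeq2 1.42.0, no filter, other limits for markers, mitochondrial share, depth and genes, thinning to 1000 or 2000 UMIs per cell, and leaving out each sample. Intervals cover counting error only. The scripts were tested on simulated data. The class fit called 76 of 92 genes changed by 2 log2 units, but 8 of 86 changed by 1, and 2 unchanged genes. The fit of 3 d.p.i. against uninjured called 60 of 100 genes changed by 5 log2 units and 58 of 99 changed by 4. It called 5 unchanged genes, and its median errors were -1.07 and -1.03. A gene that was not called can thus still have changed. Sequences were not used here.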

Additional observations from a re-analysis of the deposited data

Results flagged for a closer look

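Dixon's test at its 95% limit picked out a sample in 6 of the 37 groups of values examined, all in *nppa*-negative cells at 14 d.p.i. Chance flags about 1 in 20 groups, but 3 of the 6 hold a single UMI beside samples at 0, where the ratio is 1 by construction, so that the count is not set against chance. *klf9* was highest in replicate 3, at 12.0 CPM, and *myh6* in the same sample, at 4456 CPM. *dkk1b* (0.870 CPM) and *col11a1a* (0.870 CPM) each had their single UMI in replicate 2, and *tnc* (2.83 CPM) in replicate 1. *nppb* was highest in replicate 5, at 91.0 CPM.

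The response at 3 d.p.i. differed between *nppa*-negative and *nppa*-positive cells by the interaction term of edgeR for *mb* (difference of log2 fold changes -1.88), *cmlc1* (-1.81), *tnni4a* (-2.17), *pygmb* (-3.45) and *hsp90aa1.1* (-3.17), the 5 genes with the smallest adjusted p. Each was more negative in the *nppa*-negative cells, of which 25 stood behind the 2 samples at 3 d.p.i.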

How the results depend on the processing

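The signs of called genes mostly held, while the calls themselves depended on the setting. Of the 991 calls between the classes, 976 could be tested in cells of at least 5000 nuclear UMIs and all kept their sign, 717 of them past the threshold. These cells supplied most UMIs of the main sums, so that the kept signs are no independent check. At a mitochondrial share of at most 15%, 869 could be tested and all kept their sign, but 388 were still called. Without cells with 2 markers of another cell type, 796 could be tested, 792 kept their sign and 382 were still called. That filter counted erythroid markers too, and it took out 45.0% of *nppa*-negative and 63.2% of *nppa*-positive cells. Of the 310 calls at 3 d.p.i. against uninjured, all kept their sign with DESeq2, 251 of them past the threshold, and 48 were still called without replicate 2 of 3 d.p.i. The cause of each shift was not tested. Calls between the classes (991 in the report) numbered 1569 with no filter on low counts, 483 in cells with a mitochondrial share of at most 15%, 558 without cells with 2 markers of another cell type and 332 after thinning to 1000 UMIs, where 2551 genes were tested. At 3 d.p.i. against uninjured (310) there were 78 calls with no gene list term, 189 without uninjured replicates 1 and 2, 724 with no filter, 529 without cells with 3 or more *myh6* UMIs and 180 without the 6% of cells with the highest Scrublet score. At 14 d.p.i. against uninjured (22) there were 0 calls with no gene list term, 57 with DESeq2, 225 with no filter, 71 with at least 4 markers, 51 at a mitochondrial share of at most 15%, 53 with at least 500 genes, 113 without cells with 2 markers of another type, 14 after thinning, 67 in cells of at least 5000 UMIs, 34 without the *myh6* cells and 47 without the 6%. At 14 d.p.i. against 3 d.p.i. (163) there were 40 with no gene list term, 95 without uninjured replicates 1 and 2, 430 with DESeq2, 492 with no filter and 492 without the *myh6* cells. The interaction (129) gave 284 without uninjured replicates 1 and 2, 241 with no filter, 418 without the *myh6* cells and 247 without the 6%, of which 72 were among the 129.

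Leaving out 1 sample, which at 3 d.p.i. leaves a lone sample assumed to vary like the other groups, gave 677 to 1173 calls between the classes, 2 to 378 at 3 d.p.i. against uninjured, 0 to 51 at 14 d.p.i. against uninjured, 21 to 309 at 14 d.p.i. against 3 d.p.i. and 6 to 628 for the interaction. The difference in the share among cardiomyocytes, in percentage points, ran from 6.95 to 13.3 (14 d.p.i. minus 3 d.p.i.), from -13.9 to -4.15 (3 d.p.i. minus uninjured) and from -3.40 to 7.48 (14 d.p.i. minus uninjured). The same difference in the share of all passing cells ran from 0.655 to 1.16, from -3.64 to -0.823 and from -2.70 to 0.111. At 14 d.p.i. minus uninjured the share among cardiomyocytes was -0.370 without the 6%, -4.99 and -3.03 after thinning to 1000 and 2000 UMIs, and -8.13 without uninjured replicates 1 and 2. The sign turned for *hbba2* at 14 d.p.i. with no gene list term (-3.97), *cd63* between the classes without cells with 2 markers of another type (-0.22), *hsp90b1* at 3 d.p.i. without the 6% (-6.52) and *myh6* between the classes without its own cells (-0.53).

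Replicate numbers were not used as pairs in the main fits. Deviations of same-numbered samples correlated at -0.141 to 0.146 (6 pairs), and those of other samples at -0.146 to 0.162 (25 pairs). Such values cannot settle a pairing, since the 2 samples at 3 d.p.i. deviate from their mean in opposite ways by construction. With a replicate block there were 273 calls at 3 d.p.i. against uninjured, 113 of them among the 310, 93 at 14 d.p.i. against uninjured and 436 at 14 d.p.i. against 3 d.p.i. Limits of at least 4 markers, 500 genes, a mitochondrial share of at most 15%, no second cell type, thinning or 5000 UMIs left under 10 cells per sample at 3 d.p.i. These alternatives were not run for contrasts with that time. The comparison of the classes, where run under them, held no sample of 3 d.p.i.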
